A study of Sus scrofa with 10 samples.

Results

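The cytosolic ribosome is built from a large (60S) and a small (40S) subunit, and each protein of it is made from a separate gene. The cytosolic ribosomal protein genes of the pig ovary were taken as the protein-coding loci whose gene name is an RPL, RPS, RPLP or RPSA symbol, with an A, X or L as the only letter allowed after the number. This rule found 48 loci among 43499 in all, of which 19972 were protein-coding. Of the 48 loci, 24 encode proteins of the 60S subunit and 24 encode proteins of the 40S subunit. Of the 48 loci, 48 overlapped the RefSeq gene of the same symbol, and 46 carried the pathway term Ribosome in the table. Mitochondrial ribosomal proteins, which belong to another ribosome, were not included.

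Ovaries of 10 gilts were sequenced, 5 each from a control group and an rpFSH treatment group, to find out what recombinant porcine follicle-stimulating hormone (rpFSH) changes in the ovary. Pigs of both groups were born on the same day, shared a genetic background and were fed altrenogest, a progestin that holds back oestrus, for 18 days at a daily dose of 20 mg, beginning when they were 210 days old. After 2 days without altrenogest, pigs of the rpFSH treatment group, whose treatment label reads fpFSH, were given 1000 IU of rpFSH each, produced in CHO cells, a hamster ovary line, and pigs of the control group, labelled untreated, were given saline. The ovaries were collected when the gilts were 234 days old and the follicles on their surface were removed, so that the RNA comes from the mixed cells of the remaining ovary, with 1 library per pig. In such bulk samples, fewer cells of a type and less RNA per cell cannot be told apart.

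Ribosomal proteins are made in step with each other, because a ribosome holds most of them in 1 copy, and their mRNAs are among the most abundant of growing cells. Most of these mRNAs begin with a run of pyrimidines, the TOP motif, through which mTORC1, a kinase complex that senses nutrients and growth factors, controls their translation. In the ovary, follicle-stimulating hormone acts on granulosa cells, where it stimulates growth and steroid synthesis and is known to activate mTORC1.

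Total counts per pig were between 64873797 and 75114003. Of the 48 loci, 46 reached a mean FPKM of 0.1 (FPKM counts fragments relative to the length of the locus and the depth of the library) and were tested together with the other protein-coding loci, 15170 in all. The 46 tested ribosomal protein loci had at least 1350 counts in every pig, so their counting error was small beside the differences between pigs. The replicate numbers 1 to 5 name the pigs within a group, and a number does not link a control pig to an rpFSH pig. Markers of other cell types differed much between the pigs, and 2 pigs, control 2 and rpFSH 1, stood apart, as given below beside the values they touch.

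The 46 tested loci were expressed at high levels. Their mean FPKM had a median of 88.2, against 2.70 for all tested loci, and 45 of the 46 were among the 10% of tested loci with the highest FPKM. Together the 48 loci held 7.55, 3.97, 7.12, 8.15 and 5.88% of the protein-coding FPKM in control pigs 1 to 5, and 5.14, 7.29, 7.81, 6.89 and 6.72% in rpFSH pigs 1 to 5. Control 2 had the lowest share and rpFSH 1 the next lowest, and the groups overlapped over most of their range. The protein-coding total, by which the share is divided, was itself highest in these pigs, with 106632 FPKM in control 2, 94244 in rpFSH 1 and 72633 to 85637 in the others. As a share of the FPKM of all loci, the members held 1.64% in control 2 and 1.79% in rpFSH 3, the lowest pigs, and 2.19% in rpFSH 1. As a share of protein-coding counts, control 2 and rpFSH 1 were the lowest, with 1.235 and 1.501%. For the protein-coding FPKM, the group means were 6.53% ± 1.66 and 6.77% ± 1.00 (SD, n = 5 each), a difference of 0.239 percentage points that was smaller than either SD, and with all loci as the denominator it was -0.09 percentage points.

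RPS16, a protein of the 40S subunit, had the highest mean FPKM, 446, followed by RPL11 with 377, RPS15 with 254, RPS4X with 251 and RPS28 with 247. RPL11 is a 60S protein that, with RPL5 and the 5S rRNA, also binds MDM2 and so links ribosome assembly to p53. The lowest levels among the tested loci were 3.64 in RPS27L, 14.2 in RPL22 and 16.8 in RPL37. RPS27L is a close paralogue of RPS27 that is induced by p53. The highest and the lowest tested locus differed by 123-fold in FPKM but by 21.5-fold in CPM, which is the count relative to the library total alone.

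FPKM divides by the length that the assembly gave the locus, and this length varied more than that of ribosomal protein mRNAs, which are short. The length implied by count and FPKM ranged from 382 bp in RPS28 to 17075 bp in RPLP0, with a median of 2351 bp, and 29 of the 46 loci were over 2000 bp. RPLP0, the base of the ribosomal stalk, shared its locus with the gene name GCN1, 1 of 6 loci that carry another gene name. Of the 48 loci, 19 overlapped another RefSeq coding gene, and 18 of the 46 tested loci (39.1%) contained a snoRNA locus of the table, against 247 of the 15170 (1.63%). Introns of ribosomal protein genes are known hosts of snoRNAs. Across the 46 loci, FPKM had a Spearman correlation of -0.69 with the implied length and CPM one of 0.30, given as a description, as the points share the libraries and the length itself enters FPKM. By CPM, RPS4X was highest with 609.8 and RPLP0 came next with 605.9, although RPLP0 had a mean FPKM of 35.5. The order of FPKM between these genes therefore depends on the assembled length, whereas comparisons of 1 locus between pigs do not.

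**Figure D1:**
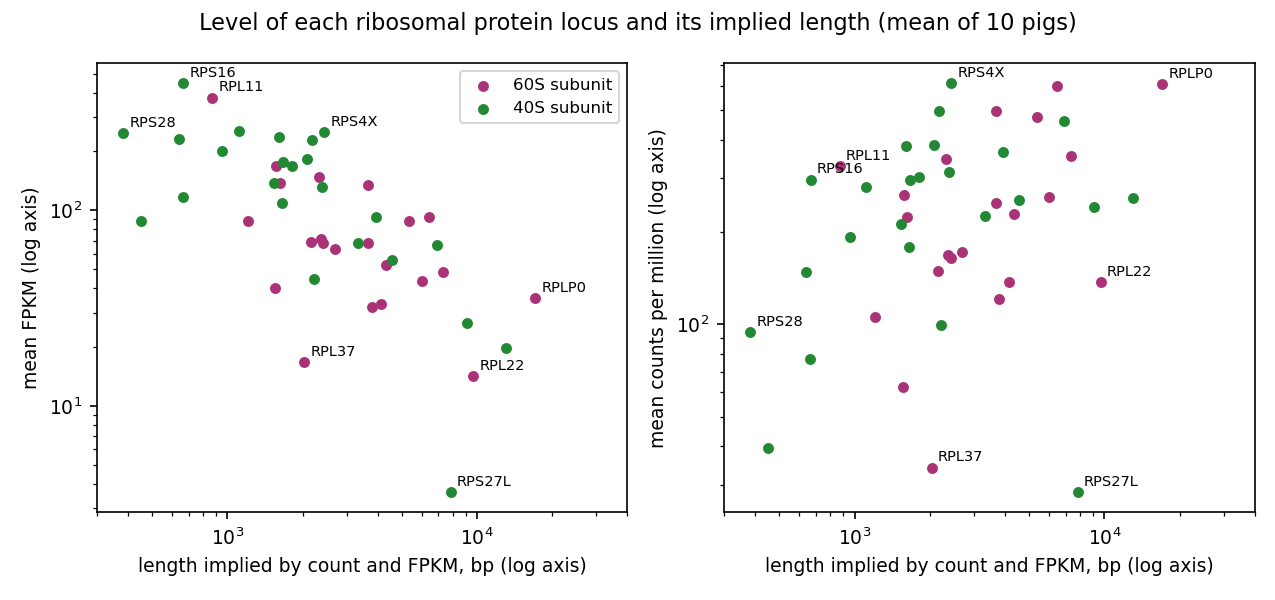
Mean level of the 46 tested ribosomal protein loci over 10 pigs against the length implied by count and FPKM, as FPKM (left) and CPM (right), with log axes and 60S and 40S loci in separate colours. FPKM falls with length and CPM does not, RPLP0 lies at 17075 bp and RPS28 at 382 bp, and RPS27L is lowest in both panels.

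None of the ribosomal protein genes passed the test between the groups. With limma, 0 of the 46 had an unadjusted P under 0.05, while 3.03% of all tested loci did, 0.817% being higher and 2.21% lower in the rpFSH treatment group. With edgeR's quasi-likelihood test on the deposited counts 0 of 46 had one (background 4.73%), and with DESeq2 0 of 46 (background 6.04%). The smallest P was 0.138 with limma, 0.229 with edgeR and 0.187 with DESeq2, and the smallest Benjamini-Hochberg adjusted p of the 46 was 1.00 with each tool. An adjusted p under 0.05 was reached by 0 of all tested loci with limma or edgeR and by 0.567% with DESeq2. The rule of the study was an unadjusted P under 0.05 together with group means more than 1 apart on the log2 scale. The study took its P from Ballgown. With limma's P in its place, 0 of the 46 were called, against 1.13% of all tested loci. In 0 of the 46 did the groups not overlap, against a background of 0.626%, made up of 0.0791% with the rpFSH pigs above and 0.547% with them below the control pigs.

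The log2 ratios of group means (rpFSH over control) were small. They had a median of -0.04, against -0.08 for all tested loci, and this median turned to 0.03 with upper-quartile scaling or quantile normalization of FPKM and to 0.04 with the counts under edgeR or DESeq2. By FPKM 17 of the 46 ratios were above 0, and by edgeR 30 were, so no direction is given for the group. The median absolute ratio was 0.09, against 0.18 for all tested loci. The ratios of the 60S loci had a median of -0.03, and those of the 40S loci one of -0.04.

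The intervals show what size of change the data leave room for. The 95% interval of the limma difference lay within 1 on the log2 scale for 45 of the 46 loci, the exception being RPL32, and within 0.5 for 24 of them. Of all tested loci, 10.4% had an interval that reached beyond 1. Apart from RPL32, the widest bounds were -0.73 in RPL34 and 0.65 in RPL11.

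**Figure D2:**
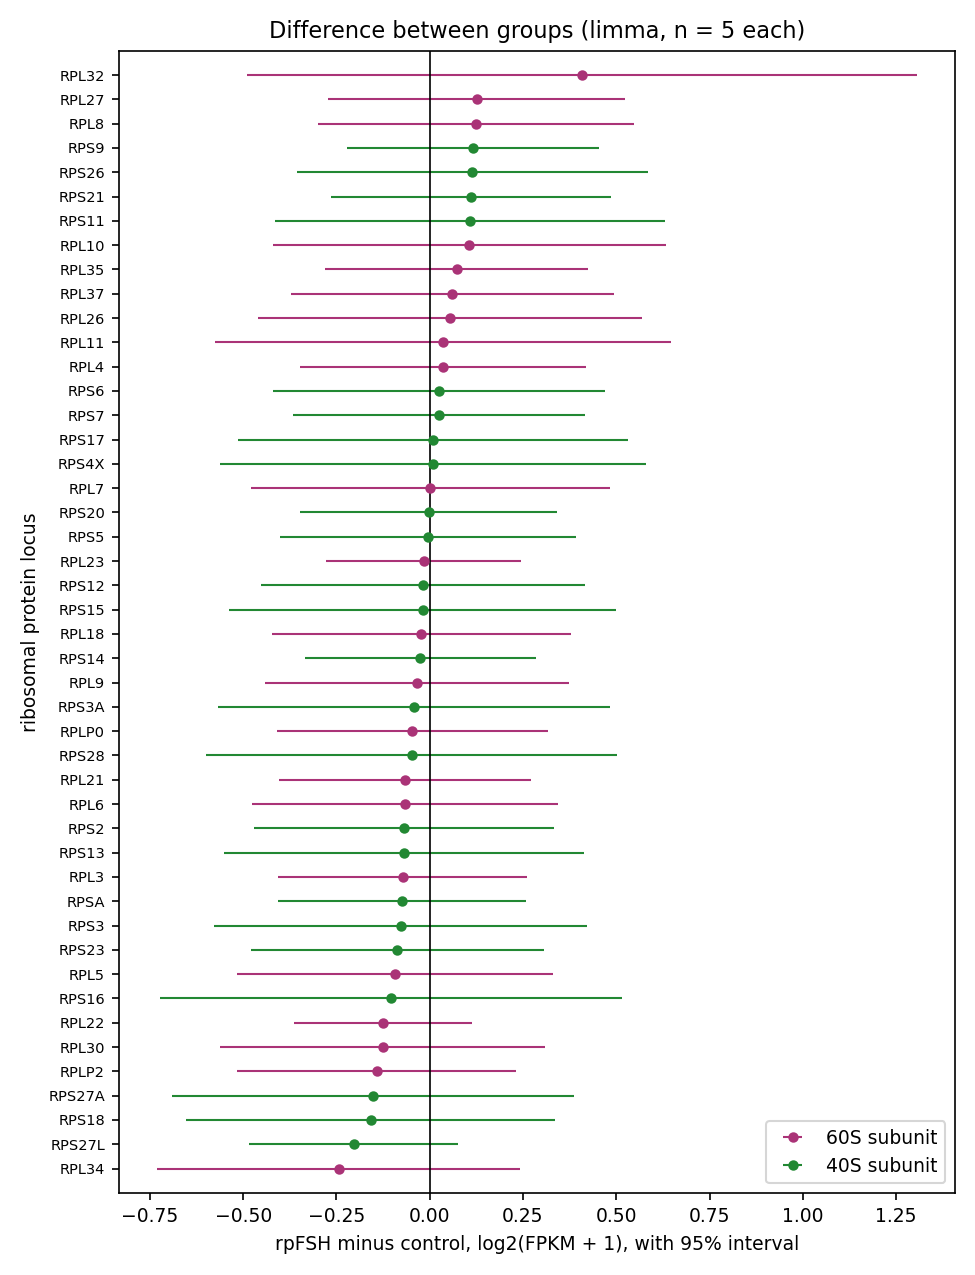
Difference between the groups (rpFSH minus control, limma on log2(FPKM + 1), n = 5 pigs each) for each of the 46 tested loci, with points for the estimate, lines for the 95% interval and colours for the subunit. Every interval contains 0, and that of RPL32 is the widest, from -0.49 to 1.31.

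In the 40S subunit, RPS27L came closest to a difference. Its FPKM was 4.13, 4.34, 3.71, 4.14 and 3.40 in the control pigs and 4.10, 2.31, 3.25, 3.58 and 3.40 in the rpFSH pigs. Pig 2 of the rpFSH group was the lowest, and the groups overlapped. The means were 3.94 ± 0.381 and 3.33 ± 0.654 (SD, n = 5 each), a log2 ratio of -0.25 (limma, P = 0.138, adjusted p = 1.00; two-sided exact permutation test, p = 0.0714).

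RPS6, the 40S protein that is phosphorylated downstream of mTORC1, had an FPKM of 154, 87.8, 131, 152 and 128 in the control pigs and of 126, 148, 121, 121 and 139 in the rpFSH pigs. Control 2 was lowest, and the rpFSH pigs lay inside the range of the control pigs. The means were 131 ± 26.8 and 131 ± 12.1, with a limma difference of 0.03 (95% interval -0.42 to 0.47; exact permutation test, p = 0.976).

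RPSA, which is also known as a laminin receptor precursor, had means of 57.2 ± 9.12 and 54.0 ± 4.62 FPKM (exact permutation test, p = 0.460). RPS27A, made as a fusion with ubiquitin, had means of 186 ± 36.7 and 169 ± 37.4 (exact p = 0.468). RPS9, among the 3 loci with the smallest limma P of those with a positive difference, had means of 43.3 ± 8.37 and 46.3 ± 1.61 (exact p = 0.516). RPS16, RPS15 and RPS28, the 40S loci of high FPKM besides RPS4X, had log2 ratios of -0.11, -0.04 and -0.06, and their exact p was 0.405, 0.770 and 0.738.

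In the 60S subunit, RPL3 forms part of the region around the peptidyl transferase centre. Its FPKM was 58.1, 36.2, 47.5, 57.3 and 49.8 in the control pigs and 47.0, 49.5, 43.2, 45.8 and 48.1 in the rpFSH pigs. Control 2 was lowest and controls 1 and 4 were highest, and the rpFSH pigs lay between them (means 49.8 ± 8.90 and 46.7 ± 2.39, exact p = 0.452). RPL5 and RPL11, the pair that carries the 5S rRNA, had log2 ratios of -0.11 (exact p = 0.548) and 0.02 (exact p = 0.929).

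RPL34 had the lowest log2 ratio of the tested loci, -0.26. Its FPKM was 80.1, 52.6, 81.4, 98.7 and 57.6 in the control pigs and 46.1, 55.0, 76.8, 74.4 and 57.3 in the rpFSH pigs. The values of both groups spread over a similar range (means 74.1 ± 18.9 and 61.9 ± 13.2, exact p = 0.214). RPL22, which is also known for a role in lymphocyte development, had means of 14.9 ± 1.95 and 13.5 ± 0.554 (exact p = 0.183). Its locus also carries the gene name ICMT and overlapped 6 RefSeq coding genes, RPL22 itself among them. RPL27 had means of 84.0 ± 12.2 and 92.2 ± 17.9 (exact p = 0.50).

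The stalk proteins recruit elongation factors to the ribosome. RPLP0 had means of 36.4 ± 7.22 and 34.7 ± 3.33 FPKM (exact p = 0.643). RPLP2 had means of 42.5 ± 8.89 and 37.8 ± 3.94 (exact p = 0.310). Without control 2 and rpFSH 1, a choice made after seeing the data, the log2 ratio of RPLP2 was -0.31 and its unadjusted P with limma was under 0.05, at an adjusted p of 0.830. It was the sole tested member with such a P in that fit.

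RPL32 varied most between pigs. Its FPKM was 55.8, 33.0, 48.3, 129 and 37.5 in the control pigs and 45.1, 113, 119, 63.0 and 47.6 in the rpFSH pigs. Control 4, rpFSH 2 and rpFSH 3 were at 113 or more, and the other pigs were at 63.0 or less. The counts of these 3 pigs were 20665, 18241 and 16705, against 5174 to 9437 in the others. The means were 60.8 ± 39.3 and 77.6 ± 35.9, a log2 ratio of 0.35 (exact p = 0.492). The locus (chr13:68779154-68793244 in Sscrofa11.1, minus strand) overlapped CAND2 in RefSeq, and what reads of that gene add to the value was not tested.

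**Figure D3:**
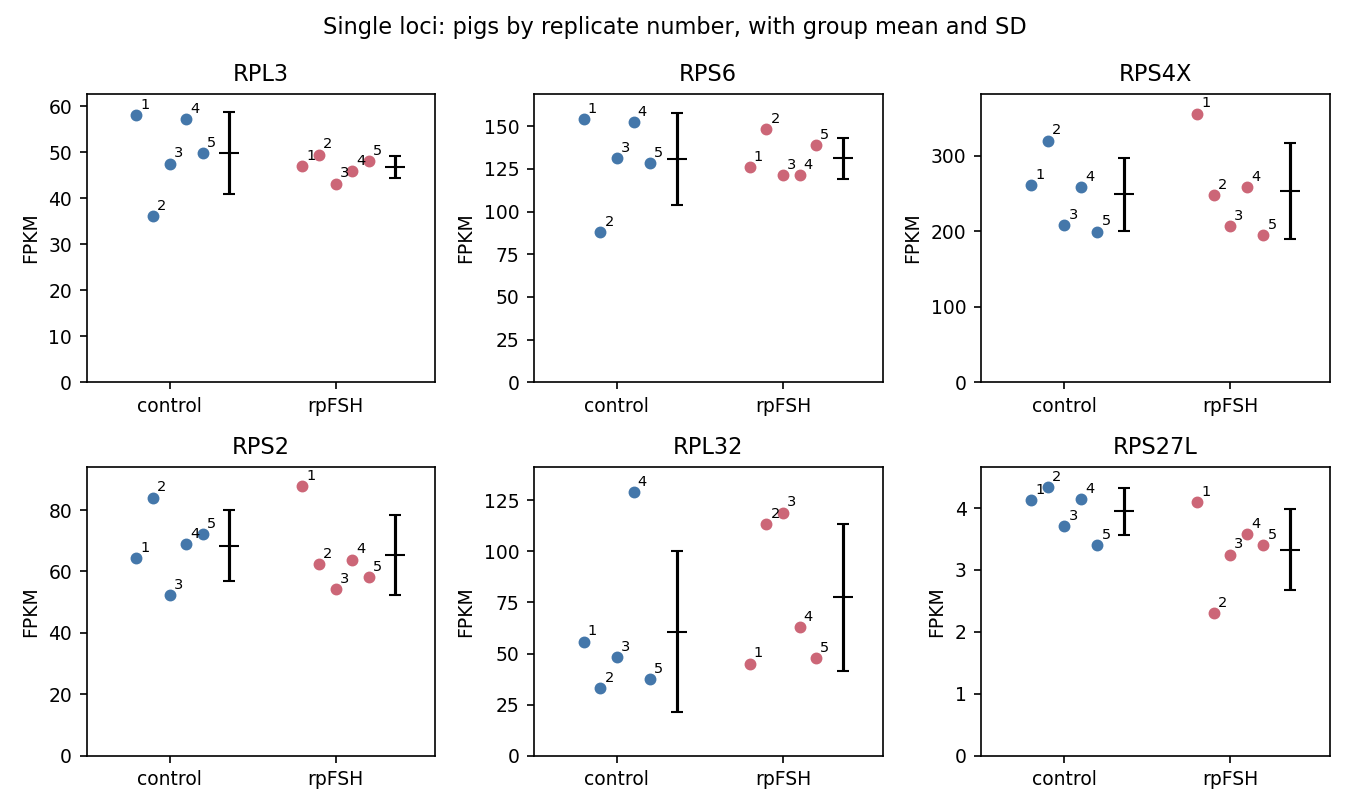
FPKM of 6 loci in each pig, with replicate numbers beside the points and the group mean and SD beside each group. In RPL3 and RPS6 control 2 is lowest, in RPS4X and RPS2 control 2 and rpFSH 1 are highest, and in RPL32 control 4, rpFSH 2 and rpFSH 3 stand at 113 or more.

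The 2 members below the filter, RPL3L and RPL10L, are paralogues that are known from single tissues. RPL3L, the heart and skeletal muscle form of RPL3, had 30, 9, 12, 6 and 21 counts in the control pigs and 9, 3, 5, 4 and 0 in the rpFSH pigs. These are few counts, and the groups overlapped between 6 and 9. The mean FPKM was 0.108 ± 0.0716 and 0.0272 ± 0.0220 (two-sided exact permutation test, p = 0.0159), and without a filter on FPKM limma gave P = 0.0277 with an adjusted p of 1.00. The locus overlapped NDUFB10 in RefSeq, and the part of that gene was not tested. RPL10L, the testis form of the X-linked RPL10, had between 0 and 4 counts in each pig, while RPL10 itself had means of 131 ± 32.2 and 140 ± 29.1 FPKM. The floor was set at 3 counts, and RPL10L was above it in 3 of 10 pigs. Many ribosomal protein genes have near-identical processed copies in the genome, and how reads that fit several places were counted is not stated.

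Most of the 46 loci moved together from pig to pig, within the groups as well as across them. For each locus, the deviation of log2(FPKM + 1) from its mean over the 10 pigs was taken, and the median over the loci was given for each pig. It was 0.23, -0.40, 0.01, 0.27 and -0.07 in the control pigs and -0.18, 0.05, 0.02, 0.04 and -0.05 in the rpFSH pigs. Control 2 was the lowest pig in 32 of the 46 loci and rpFSH 1 in 8, and one of these pigs was lowest in 31.2% of the 14560 tested loci that had a single lowest pig. By FPKM, rpFSH 1 alone was lowest in 17.4% of the 46, against 13.6% of all tested loci. With TMM-scaled counts, upper-quartile FPKM or quantile FPKM, control 2 or rpFSH 1 was lowest in 41, 41 and 43 of the 46. Control 2 alone was lowest in 35, 31 and 37, against 19.24, 21.21 and 21.95% of all tested loci. For rpFSH 1 the shares were 13.04, 21.74 and 13.04% of the 46, against 14.02, 19.83 and 12.46%. The excess over all tested loci therefore came mainly from control 2. Control 4 was highest in 20 loci and control 1 in 12, against 18.9% of all tested loci for both together. Which pig was highest depended on the scaling, as these pigs together were highest in 32 loci by FPKM but in 24, 24 and 20 by the other scalings, and rpFSH 3 was highest most often, in 13 loci, by quantile FPKM. Control 1 was above the median of the 10 pigs in 46 of 46 loci. The median over loci of the ratio between the mean of controls 1 and 4 and control 2 was 1.61.

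**Figure D4:**
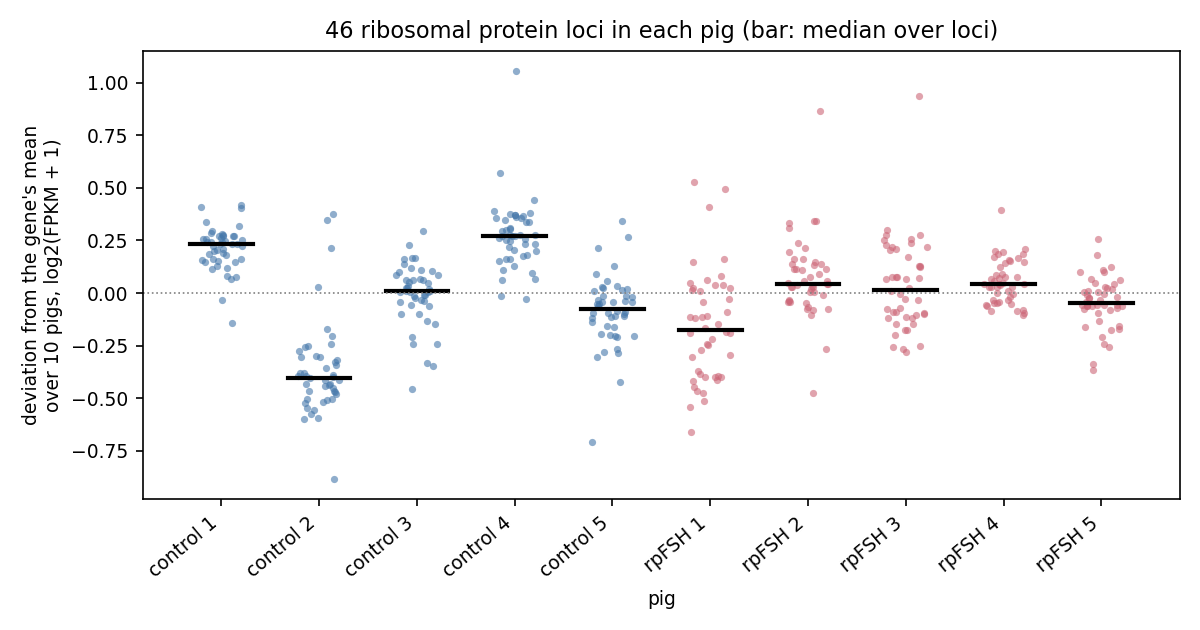
Deviation of each of the 46 loci from its own mean over 10 pigs, on the log2(FPKM + 1) scale, by pig, with a bar at the median over loci and colours for the groups. The bars of controls 1 and 4 stand highest, at 0.23 and 0.27, and that of control 2 lowest, at -0.40, and the points of rpFSH 1 spread widely.

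Subtracting the median of the 46 loci in each pig removed 49.9% of the variance between pigs of the 45 loci whose mean FPKM was 10 or more, and 55.4 to 70.4% on TMM-scaled counts, upper-quartile FPKM or quantile FPKM. In 1267 other loci of at least 10 FPKM, the same subtraction made the variance larger (share removed, -17.0%), and their own pig median removed 4.99%. Pig medians of other lists, taken over their own loci, removed 37.6% in 74 mitochondrial ribosomal proteins and 31.8% in 69 factors of ribosome biogenesis. They removed 4.93% in 13 elongation and termination factors and 6.21% in 22 genes of mTORC1 signalling and TOP mRNA control. In 7 proliferation markers the share was 86.2%, so shared movement was not particular to the 46 loci. The SD over the 10 pigs was 0.24 on the log2 scale as a median over the 46 loci, against 0.37 for tested loci of at least 10 FPKM, and 0.13 was left after the subtraction. As the pigs differ in the levels of cell type markers, these values are descriptions of the 10 libraries.

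The pattern was also present in ribosomal protein genes that the name rule did not reach. After the table had been seen, 31 loci (30 symbols) were found that are described as ribosomal proteins but carry an Ensembl identifier or the name of a neighbour in place of the symbol. Among them were RPLP1 and RPS19, and RPS27, the parent of RPS27L. With the 48 members they covered 78 symbols. Control 2 was the lowest pig in 24 of the 31, against 17.5% of all tested loci. It was above the median of the 10 pigs in 0, against 52.9% of all tested loci. The pig rpFSH 1 was lowest in 6 of the 31 (19.4%, against 13.6% of all tested loci) and highest in 5 (16.1%, against 16.2%). The pig medians of the 46 loci removed 58.2% of the variance of these 31, which had no part in the medians. In the test between groups, 0 of the 31 had a P under 0.05 with limma and 0 with edgeR, and the log2 ratios had a median of -0.02. RPLP1, the stalk partner of RPLP2, had means of 53.8 ± 8.77 and 50.0 ± 5.84 FPKM (exact p = 0.429), and RPS19, the gene most often mutated in Diamond-Blackfan anaemia, had 31.6 ± 7.45 and 32.2 ± 4.61 (exact p = 0.897).

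Of the 46 loci, 34 were below the median of the 10 pigs in both control 2 and rpFSH 1, against 27.2% of all tested loci, and 3 were above it in both, RPS4X, RPS2 and RPS27L. RPS4X is the X-linked form of a 40S protein. Its FPKM was 261, 320, 208, 258 and 199 in the control pigs and 356, 248, 207, 259 and 195 in the rpFSH pigs. The 2 pigs that were low in most loci were the highest in RPS4X, and the group means were 249 ± 48.5 and 253 ± 63.6 (exact p = 0.968). After the pig medians had been subtracted, RPS4X was 0.78 above its mean in control 2 and 0.71 above it in rpFSH 1 on the log2 scale.

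RPS2, a 40S protein chosen here after its values were seen, had the same order of these pigs. Its FPKM was 64.4, 84.1, 52.3, 68.9 and 72.2 in the control pigs and 87.8, 62.5, 54.2, 63.8 and 58.2 in the rpFSH pigs. Control 2 and rpFSH 1 were again the highest (means 68.4 ± 11.6 and 65.3 ± 13.1, exact p = 0.683). RPL27 was highest in rpFSH 1, with 123 FPKM against 71.2 to 98.7 in the other pigs, whereas in control 2 it was 75.5. The locus of RPS2 overlapped RNF151 and NDUFB10 in RefSeq, while those of RPS4X and RPL27 overlapped no other coding gene.

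Control 2 and rpFSH 1 were also the pigs with the highest summed level of the 7 luteal and theca markers, which were all above the floor of the table in every pig. This sum was 2815 FPKM in control 2 and 1713 in rpFSH 1, and 58.3 to 280 in the other control pigs and 22.6 to 505 in the other rpFSH pigs. STAR, which brings cholesterol into mitochondria for steroid synthesis, was 532 and 448 FPKM in these pigs and at most 121 in the others. CYP11A1, which makes pregnenolone from that cholesterol, was 1763 and 787 and at most 178 in the others. The androgen enzyme CYP17A1 and INSL3, which are theca markers, were not higher in these pigs, with 5.46 and 7.55 FPKM of CYP17A1.

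Other markers moved with the same pigs in part. The summed proliferation markers (7 of 8 found) were lowest in control 2, with 7.56 FPKM. They were highest in control 1 and control 4, with 60.7 and 54.2. In rpFSH 1 they were 39.9, and in rpFSH 3, where the median deviation of the 46 loci was 0.02, they were 11.0. The summed granulosa markers (6 of 7 found) were also lowest in control 2, with 6.57 FPKM. They were 94.0 in control 4, 93.8 in rpFSH 2 and 80.2 in rpFSH 1. The median deviation over the granulosa markers was 1.00 in rpFSH 2 but -0.28 in rpFSH 1. Ciliated and oviduct-type markers were 67.3 in control 2 and 126 in control 5 and at most 17.3 in the others, and FOXJ1, which defines ciliated cells, was at the floor of the table in rpFSH 1 and rpFSH 5. Control 5 also had the highest sum of smooth muscle markers, 1808 FPKM, against 71.6 to 496 in the others. Between the groups, 5 of the 12 ciliated and oviduct-type markers were lower in the rpFSH treatment group with limma at an unadjusted P under 0.05, among them MAL2, PIFO and DNAH9, and 0 were higher. Of all tested loci 2.21% were lower by this limit and 0 had an adjusted p under 0.05, and edgeR gave an unadjusted P under 0.05 to 9 of the 12. In the other 8 marker lists (granulosa, luteal and theca, smooth muscle, endothelial, leukocyte, erythroid, oocyte and proliferation) 0 passed. The part of these cell types in the levels of the ribosomal protein genes was not tested. Without control 2 and rpFSH 1, the median log2 ratio of the 46 loci was -0.09.

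**Figure D5:**
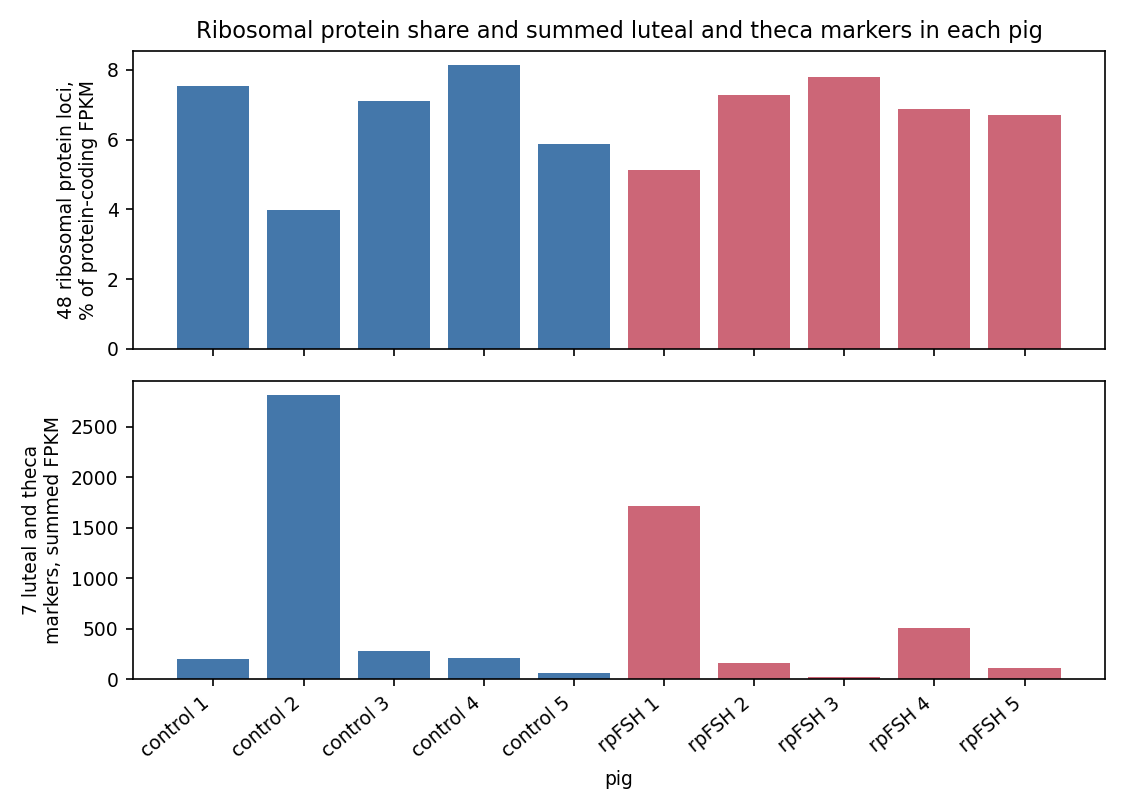
Share of protein-coding FPKM held by the 48 ribosomal protein loci (top, %) and summed FPKM of 7 luteal and theca markers (bottom) in each pig, with bars coloured by group. Control 2 and rpFSH 1 have the lowest shares, 3.97 and 5.14%, and the highest marker sums, 2815 and 1713.

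The balance of the subunits can be read from their sums. The 60S loci summed to 1886 ± 370 FPKM in the control group and to 1901 ± 186 with rpFSH, and the 40S loci to 3642 ± 598 and 3532 ± 224. The sum of the 40S loci was 1.94 ± 0.07 times that of the 60S loci in control pigs and 1.86 ± 0.09 times in rpFSH pigs, with pigs between 1.84 and 2.04 and between 1.72 and 1.96. This ratio depends on the assembled lengths and on the loci that the name rule reached, so it does not count proteins.

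Genes that work with the ribosome were compared as lists. Among translation initiation factors 0 of 35 had a P under 0.05 in either direction, and among elongation and termination factors 0 of 13. Of the factors of ribosome biogenesis 0 of 69 had one, and of mTORC1 signalling and TOP mRNA control 0 of 22. Their median log2 ratios were 0.02, 0.01, -0.03 and -0.03, respectively, and edgeR gave 0 in each list. Among 8 proteins of the ribosome or bound to it that the name rule leaves out, among them RACK1, RPL22L1, RPL36AL and NACA, 0 had a P under 0.05.

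Of 74 mitochondrial ribosomal proteins, 1 was lower in the rpFSH treatment group and 0 were higher. MRPL36, of the large mitochondrial subunit, had an FPKM of 2.42, 2.66, 2.71, 2.34 and 2.87 in the control pigs and of 2.42, 2.11, 1.58, 2.31 and 1.16 in the rpFSH pigs. The groups overlapped by rpFSH 1, and the means were 2.60 ± 0.217 and 1.92 ± 0.533 (limma, P = 0.0415, adjusted p = 1.00; edgeR, P = 0.177; exact permutation test, p = 0.0238). Of all tested loci, 2.21% were lower by the same limit, a larger share than 1 in 74.

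The mitochondrial ribosomal proteins were not low in rpFSH 1, where their sum was highest, 476 FPKM, against 226 to 356 in the other pigs. The elongation factor EEF1A1, whose mRNA also carries the TOP motif and which was chosen after its values were seen, had 615 FPKM in control 2 and 707 in rpFSH 1, and 762 to 945 in the other pigs. RACK1, a scaffold on the 40S subunit, had 119 and 141 FPKM in these pigs and 152 to 199 in the others. In both genes control 2 and rpFSH 1 were the lowest pigs. The sums of their lists, which include these genes, also had these pigs lowest. The elongation and termination factors summed to 1471 and 1569 FPKM in them, against 1712 to 2029 in the others. The proteins outside the name rule summed to 245 and 283, against 292 to 397. The median deviations over the lists, in which each gene counts alike, did not have both pigs lowest. Over the 13 elongation and termination factors, the median deviation was -0.06 in control 2 and -0.01 in rpFSH 1, and lowest in rpFSH 2, at -0.11. Over the 8 proteins outside the name rule it was lowest in control 2, at -0.23. In rpFSH 1 it was -0.03, above control 5 with -0.14.

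Ribosomal protein genes are often used as reference genes in expression assays, and their spread can be set beside that of other reference genes. Among the members of at least 10 FPKM, RPL23 had the smallest SD over the 10 pigs, 0.12 on the log2(FPKM + 1) scale, with RPL22 and RPS20 at 0.14, and RPLP0 had 0.23. The loci of RPL23, RPL22 and RPLP0 also carry the names C17orf98, ICMT and GCN1, and what reads of those genes add was not tested. Of 14 reference genes outside the ribosome, TBP had 0.13, TOP2B 0.17, YWHAZ 0.24 and ACTB 0.35. GAPDH had 0.72 and GUSB 1.06, and GAPDH was highest in rpFSH 1 with 140 FPKM while GUSB was highest in control 2 with 126. RPL32 had 0.71, the largest SD of the members of at least 10 FPKM. None of the 14 had a P under 0.05 between the groups with limma (0 of 14) or edgeR (0 of 14).

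Besides the members, 2 loci that are not protein-coding in the table carried a ribosomal protein name. The one named RPL37 (chr16:25796748-25849939) had 2.33, 0.657, 2.28, 2.03 and 0.824 FPKM in the control pigs and 3.80, 1.04, 6.78, 2.67 and 6.44 in the rpFSH pigs. The groups overlapped through rpFSH 2 (means 1.62 ± 0.815 and 4.15 ± 2.46, two-sided exact permutation test, p = 0.0556). The coding RPL37 locus beside it had 16.5 ± 3.97 and 17.1 ± 3.42. The one named RPS12 (chr1:30919052-30920075) had 3.29 ± 0.904 and 2.21 ± 0.277 FPKM (same exact test, p = 0.0635).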

How the data were processed

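Ovary RNA-seq values of 10 pigs were used (5 control and 5 rpFSH pigs). The authors trimmed and mapped the reads, assembled loci and estimated FPKM, and their processing notes name Bowtie 0.12.2, HISAT2 2.0, StringTie 1.3.0 and Sscrofa11.1. The deposited table also gives whole-number counts for each locus and pig, and how they were made and whether strand was used is not stated. The labels describe poly(A) RNA sequenced on a NovaSeq, but the study's methods describe rRNA removal and a HiSeq. Loci can merge neighbouring genes, whose reads then cannot be told apart.

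Groups were compared with limma 3.58.1 (trend) on log2(FPKM + 1), two-sided, over 15170 protein-coding loci whose mean FPKM reached 0.1, with Benjamini-Hochberg adjustment over these. The log2 ratio is that of the group mean FPKM, and the limma difference is one of mean log2(FPKM + 1), so it understates changes of low genes. Single loci were also compared by a two-sided exact permutation test of FPKM over 252 assignments. In R 4.3.3, the counts were tested with edgeR 4.0.16 (quasi-likelihood after TMM scaling) and with DESeq2 1.42.0. Other alternatives were a pseudocount of 0.1, no filter or one at a mean FPKM of 1, quantile normalization, upper-quartile scaling, a replicate block and the omission of 1 pig at a time. The fits were tested on simulated data. Tables were handled in Python 3.11.15 with pandas 2.3.3.

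The members and lists were chosen with earlier results of these data known. Named members are the 3 with the smallest P in each direction, the 5 highest and 5 lowest by FPKM, the 3 with the largest and smallest SD of those of at least 10 FPKM, the stalk proteins, RPSA, RPS6, RPL5, RPL11, RPS27A and RPS19, and the paralogues RPL3L, RPL10L and RPS27L with their parents. Outside the members they are genes of the lists with a P under 0.05, paralogues and reference genes. The luteal, proliferation and other marker genes named beside the pigs, EEF1A1, RACK1 and RPS2 were chosen after their values were seen. The P of each fit sets the difference between the groups against the spread between single pigs, which the fits estimate with help from other loci. Intervals on counts and the floor of 3 counts cover counting error only. Sequences were not analysed here.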

Additional observations from a re-analysis of the deposited data

Results flagged for a closer look

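In groups of 5 pigs, a pig was singled out when its gap to the nearest other pig took a larger part of the group's range than Dixon's 95% limit, which chance gives in about 1 of 20 groups, and 4 of 98 groups met this. RPL27 was 123 FPKM in rpFSH 1, above the other rpFSH pigs. RPL32 was 129 FPKM in control 4, above the other control pigs. RPS2 was 87.8 FPKM in rpFSH 1, above the other rpFSH pigs. RPSA was 45.8 FPKM in rpFSH 3, below the other rpFSH pigs. Both RPL27 and RPS2 were singled out in rpFSH 1, the pig whose summed luteal and theca markers were 1713 FPKM, and the part of these cells was not tested.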

How the results depend on the processing

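The number of ribosomal protein loci with a P under 0.05 was 0 in the alternatives planned, except for 1 without a filter on FPKM (RPL3L, which then also met the rule of the study, 1 locus). With 1 pig left out at a time, it ranged from 0 to 0, as did the number called by the rule of the study. Without control 2 and rpFSH 1, chosen after seeing the data, 1 locus (RPLP2) had one. Over the 15170 protein-coding loci, the number was 460 with limma, 717 with edgeR and 917 with DESeq2. With the filter applied anew, it was 870 of 15150 without control 2 and rpFSH 1, and 360 to 690 of 15055 to 15210 with 1 pig left out. The cause was not tested. The median log2 ratio of the members ranged from -0.13, without control 2, to 0.03, without control 4, and the difference in share from -0.40 to 0.65 percentage points, again lowest without control 2. The sign of both changed with single pigs, and that of the share also with all loci as the denominator (-0.09 percentage points). Of 418 values of named loci under alternatives, 366 kept their sign and side of the threshold, 51 changed sign without passing it and 1 passed it. With the replicate number as a block, 0 members and 388 protein-coding loci had a P under 0.05 and the median ratio was -0.04. The numbers did not pair the pigs, as the correlation of same-numbered pigs ranged from -0.413 to 0.111, with 1 of 5 over 0.1, and 0 of 5 control pigs matched their own number best. With 5 pigs a group and a variance that limma draws toward other loci, the 95% intervals of 22 of the 46 members reached beyond 0.5 on the log2 scale.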
